A study of Rattus norvegicus with 12 samples.

Results

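The insulin-like growth factor axis was followed in 12 rat retinal RNA libraries through 5 genes. They were chosen by Ensembl identifier: Igf1 (ENSRNOG00000004517), Igf2 (ENSRNOG00000020369), Igfbp2 (ENSRNOG00000016957), Igfbp5 (ENSRNOG00000017206) and Irs1 (ENSRNOG00000014597). All 5 identifiers were present among the 32883 gene rows of the deposited table. The table gives identifiers without names and the RefSeq table used here holds 0 Ensembl identifiers, so the symbols come with the choice of the genes and were not checked against an annotation. The same gap meant that markers of the retina and of other cell types were not measured here, and neither were the receptors and other genes of the pathway.

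Retinas were taken at postnatal day 18 from Sprague Dawley rats, all wild type. There were 4 groups of 3 libraries: oxygen-induced retinopathy (OIR) with miR-143 mimic, OIR with scrambled RNA, sham with miR-143 mimic and sham with scrambled RNA. OIR is a rodent model in which changed oxygen first halts the growth of retinal vessels and later provokes abnormal new vessels. The mimic is a synthetic RNA that stands in for the mature microRNA, and the scrambled RNA is its control. For OIR mimic replicate 1 and OIR scrambled replicate 3 the group came from the title, because their records carry no disease or transfection tag. The protocol speaks of biological samples in triplicate but does not tie libraries to animals, so the p-values refer to the spread among these libraries, which may be technical.

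Depth was even, with 10537303 to 13174627 reads on genes per library as recovered from the TPM values. Each column is headed by a number and a letter, which the labels do not explain. The letter is L for every mimic library and R for every scrambled library, so it cannot be told apart from the injection. Sham mimic replicate 1 and sham scrambled replicate 1 are headed by the same number. The limma fits took them as independent libraries, and if they share a source the p-values do not allow for it.

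IGF-1 and IGF-2 are secreted peptides that act mainly through the IGF-1 receptor, a tyrosine kinase. IGF-binding proteins hold them in the extracellular space and can restrain or prolong their action. IRS-1 is a docking protein that couples the insulin and IGF-1 receptors to PI3K-Akt and MAP kinase signalling. In the developing retina, IGF-1 is known to be needed for normal vessel growth, and low circulating IGF-1 is associated with retinopathy of prematurity in infants.

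The agent under test was miR-143, and RefSeq (build GRCr8) gives 2 mature arms for the rat gene on the minus strand of chromosome 18. They are shown because the labels do not say which arm the mimic carries. Capitals mark the seed, bases 2 to 8. The first lies at chr18:57371373-57371394 and the second at chr18:57371408-57371428.
rno-miR-143-3p: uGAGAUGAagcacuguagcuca
rno-miR-143-5p: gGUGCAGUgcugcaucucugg
The arms have different seeds. Seed matches in the 5 messages were not analysed here.

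Averaged over both injections, none of the 5 genes passed the test for a difference between OIR and sham retinas: 0 of 5 reached an adjusted p of 0.05 in limma, where 30.2% of the 15916 tested genes did. The count was likewise 0 of 5 for OIR against sham with the mimic, where 19.5% of tested genes were called, and with scrambled RNA, where 10.7% were. For mimic against scrambled RNA in either condition and for the interaction it was 0 of 5, with 0% of tested genes called. Igf1, Igfbp2 and Igfbp5 spread widely between libraries of the same group. For Igf1 and Igfbp5 this came in large part through OIR mimic replicate 3, and for Igf1 also through OIR mimic replicate 2. Igf2 had the smallest adjusted p of the 5, in OIR against sham with the mimic. Irs1 had the lowest level and the smallest spread of the 5. Its widest group was OIR with the mimic, which also had the largest median SD over all tested genes. Values are TPM, which are per gene length, so that levels of different genes can be set side by side.

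The order of the levels was Igfbp5, Igfbp2, Igf2, Igf1 and Irs1, with means over the 12 libraries of 82.9, 60.1, 26.9, 22.3 and 4.01 TPM. Neighbouring genes overlapped in the upper part of this order. Igfbp5 lay above Igfbp2 in 10 of 12 libraries, in 4 of 6 from OIR and 6 of 6 from sham. Igfbp2 lay above Igf2 in 11 of 12, and Igf2 above Igf1 in 9 of 12. Irs1 was below each of the others in all 12 libraries. Set against all tested genes, Igfbp5 had a higher mean than 84.3% of them, Igfbp2 than 77.8%, Igf2 than 56.7%, Igf1 than 52.0% and Irs1 than 21.4%. In these bulk libraries, fewer cells of a type and less RNA per cell cannot be told apart.

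**Figure D1:**
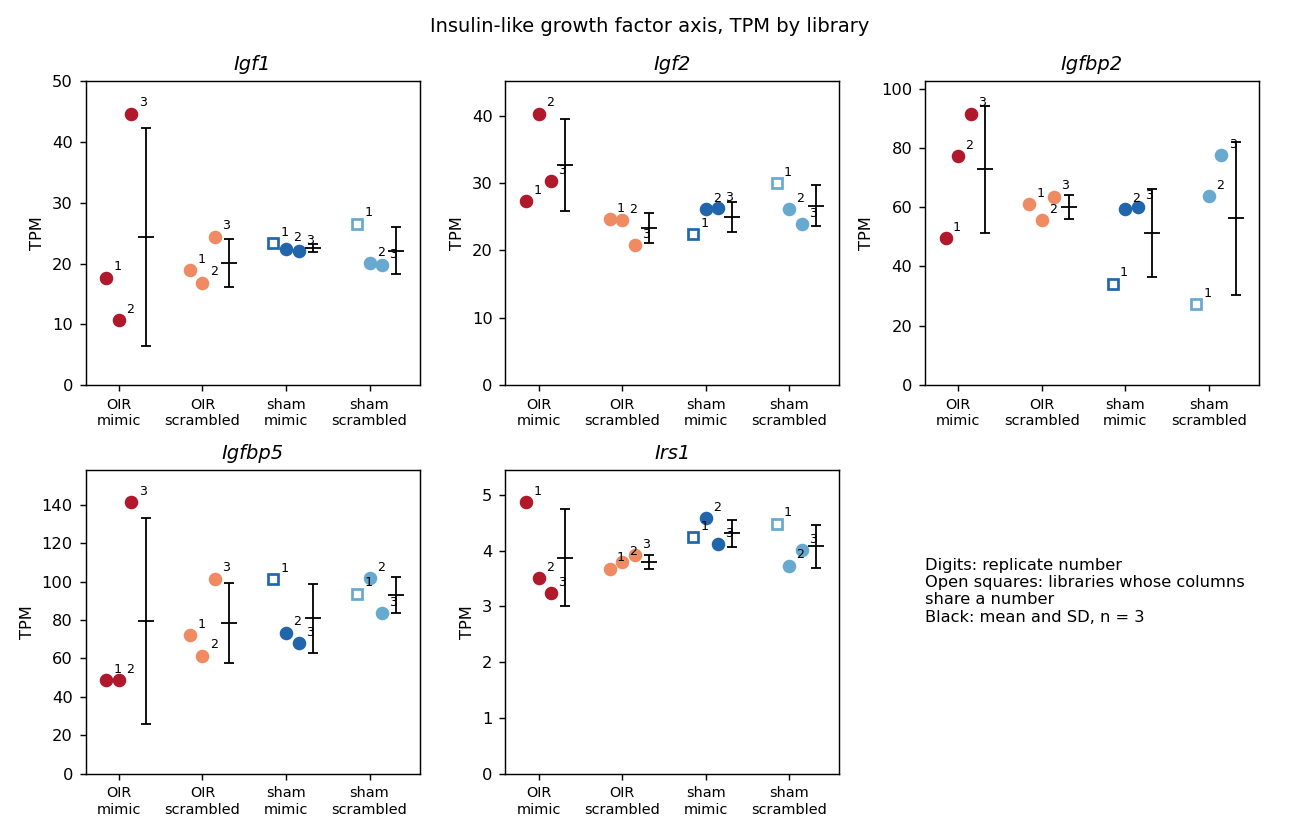
TPM of each gene (linear axes from 0) in every library of the 4 groups; digits are replicate numbers, open squares the 2 sham libraries whose columns share a number, and black bars the mean and SD of 3 libraries. OIR mimic replicate 3 is highest for Igf1 (44.7 TPM), Igfbp2 (91.6 TPM) and Igfbp5 (141 TPM), and the open squares are lowest for Igfbp2 (34.2 and 27.4 TPM).

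Of the ligands, Igf1 encodes the growth hormone-dependent factor of postnatal life, which many tissues also make locally. In OIR retinas with the mimic it stood at 17.7, 10.7 and 44.7 TPM in replicates 1, 2 and 3, and with scrambled RNA at 19.0, 16.9 and 24.4 TPM. In sham retinas with the mimic it stood at 23.3, 22.5 and 22.1 TPM, and with scrambled RNA at 26.6, 20.04 and 19.7 TPM. The OIR mimic libraries thus held both the lowest and the highest Igf1 level of the study, 4.17-fold apart, while the 6 sham libraries lay within 1.35-fold. These levels rest on 122 to 436 recovered reads. The exact 95% Poisson interval, which covers counting error only, was 101 to 146 reads for OIR mimic replicate 2 and 396 to 479 for replicate 3, so the gap between these libraries exceeded counting error.

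Igf1 averaged 22.2 ± 11.8 TPM in OIR and 22.4 ± 2.50 TPM in sham (SD, n = 6 each). The log2 fold change averaged over injections was -0.13 (SE 0.27, 95% interval -0.72 to 0.46, limma adjusted p 0.748). All fold changes here are on the log2(TPM + 1) scale, which understates the change of low genes. Of the fits with 1 library left out, only that without OIR mimic replicate 2 changed the sign of the Igf1 value. It gave 0.086 (limma adjusted p 0.788), while leaving out replicate 3 of that group gave -0.40 (limma adjusted p 0.0551).

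Igf2 encodes the second ligand, a growth factor best known from fetal life and imprinted in rodents. Its levels were 27.4, 40.3 and 30.3 TPM in OIR retinas with the mimic and 24.7, 24.5 and 20.7 TPM in OIR with scrambled RNA. They were 22.5, 26.2 and 26.3 TPM in sham with the mimic and 30.0, 26.1 and 23.9 TPM in sham with scrambled RNA. All 3 OIR mimic libraries lay above all 3 OIR scrambled libraries, and also above all 3 sham mimic libraries. Groups that did not overlap were found for 12.6% of tested genes between mimic and scrambled RNA in OIR, and for 36.1% between OIR and sham with the mimic. Within OIR, Igf2 averaged 32.7 ± 6.80 TPM with the mimic and 23.3 ± 2.21 TPM with scrambled RNA (SD, n = 3 each).

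The log2 fold change of Igf2 for mimic against scrambled RNA in OIR was 0.46 (SE 0.14), with an unadjusted limma p of 0.00688 and an adjusted p of 0.462. At that unadjusted level of 0.05, 9.37% of tested genes passed in this comparison, and 0% passed after adjustment. Leaving out any single library kept it between 0.30 and 0.57. In sham the same contrast gave -0.087 (SE 0.14, limma adjusted p 1). The interaction, the difference between these 2 mimic effects, was 0.54 (SE 0.20) with an unadjusted limma p of 0.0177 and an adjusted p of 1.00. A different effect of the mimic on Igf2 in OIR and in sham was therefore not shown at the threshold used.

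Between OIR and sham, Igf2 had a log2 fold change of 0.36 with the mimic (SE 0.14, limma adjusted p 0.0969) and of -0.19 with scrambled RNA (SE 0.14, limma adjusted p 0.441). The comparison with the mimic passed when OIR mimic replicate 1, one of the libraries without condition tags, was left out (log2 fold change 0.47, limma adjusted p 0.0446). In that setting 16.8% of tested genes were called. The library left out had the lowest Igf2 of the OIR mimic group, and no other fit with 1 library left out passed. The value was 0.20 without OIR mimic replicate 2 and 0.29 without sham mimic replicate 1 (limma adjusted p 0.277 and 0.247). Averaged over injections the value was 0.085 (SE 0.098, 95% interval -0.13 to 0.30, limma adjusted p 0.557), and 0.0065 without OIR mimic replicate 2 or 0.14 without OIR mimic replicate 1. Igf2 levels averaged 28.0 ± 6.84 TPM in OIR and 25.8 ± 2.55 TPM in sham (SD, n = 6 each).

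Of the binding proteins, Igfbp2 encodes a soluble carrier of both ligands. It stood at 49.5, 77.3 and 91.6 TPM in OIR retinas with the mimic and at 61.1, 55.6 and 63.6 TPM in OIR with scrambled RNA. In sham it stood at 34.2, 59.4 and 60.2 TPM with the mimic and at 27.4, 63.8 and 77.5 TPM with scrambled RNA. The lowest values, 34.2 and 27.4 TPM, belonged to the pair of sham libraries that share a column number, and the other 10 libraries lay between 49.5 and 91.6 TPM. They rest on 245 and 178 recovered reads, against 348 to 594 in the other libraries. Of all tested genes, 4.39% had these libraries as the lowest pair of the 12 and 7.33% as the highest pair. None of the other 4 genes showed either pattern.

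Igfbp2 averaged 66.4 ± 15.4 TPM in OIR and 53.7 ± 19.0 TPM in sham (SD, n = 6 each), a log2 fold change of 0.36 (SE 0.26, 95% interval -0.21 to 0.93, limma adjusted p 0.331). Without the pair of libraries with the shared number it was 0.0049 (SE 0.15, limma adjusted p 0.985), a setting chosen after seeing the data. With scrambled RNA alone the value was 0.22 (SE 0.36, limma adjusted p 0.760), and -0.23 without sham scrambled replicate 1 (limma adjusted p 0.678). With the mimic alone it was 0.50 (SE 0.36, limma adjusted p 0.389), and 0.24 without sham mimic replicate 1 or 0.75 without OIR mimic replicate 1 (limma adjusted p 0.730 and 0.239). Averaged over injections, leaving out sham scrambled replicate 1 gave 0.14 and sham mimic replicate 1 gave 0.23.

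Igfbp5 encodes the most conserved of the binding proteins, which also binds extracellular matrix. Its levels were 48.5, 48.6 and 141 TPM in OIR retinas with the mimic and 72.3, 61.4 and 101 TPM in OIR with scrambled RNA. In sham they were 101, 73.4 and 67.9 TPM with the mimic and 93.7, 102 and 83.5 TPM with scrambled RNA. In each OIR group replicate 3 was highest, and 3 of the 6 OIR libraries lay below the lowest of the 6 sham libraries, while 1 lay above the highest. With 1563 to 4198 recovered reads per library, counting error gives an SD of only 0.028 on the log2 scale, while the SD within groups was 0.50.

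Igfbp5 averaged 78.9 ± 36.3 TPM in OIR and 86.9 ± 14.3 TPM in sham (SD, n = 6 each). The log2 fold change averaged over injections was -0.23 (SE 0.26, 95% interval -0.80 to 0.33, limma adjusted p 0.539). Of the fits with 1 library left out, only the fit without OIR mimic replicate 3 called Igfbp5. Without OIR mimic replicate 3 the value was -0.49 (SE 0.14, limma adjusted p 0.0244) averaged over injections and -0.70 (SE 0.20, limma adjusted p 0.0435) with the mimic, and Igfbp5 was called lower in OIR. In that setting 26.8% of tested genes were called in the averaged comparison and 15.3% with the mimic. Leaving the library out also lowered the SD within groups, from 0.50 to 0.26, and the SE with it. Dixon's outlier test divides the gap between the highest and the next value by the range. Over the OIR libraries it gave 0.43 for Igfbp5 in TPM, which did not pass the critical value. With scrambled RNA alone, OIR mimic replicate 3 has no part in the means but still enters the SE, since the spread is pooled over all groups. The value there was -0.27 (SE 0.36, limma adjusted p 0.692), and -0.11 without OIR scrambled replicate 2 or -0.47 without OIR scrambled replicate 3.

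Irs1, the docking protein, had the lowest level of the 5. It stood at 4.87, 3.50 and 3.24 TPM in OIR with the mimic and 3.68, 3.79 and 3.92 TPM in OIR with scrambled RNA. In sham it stood at 4.24, 4.58 and 4.11 TPM with the mimic and 4.48, 3.73 and 4.01 TPM with scrambled RNA. The groups overlapped in every comparison. OIR with the mimic was the widest group, with an SD of 0.25 on the log2 scale, against 0.037 to 0.11 in the other groups. The median SD over all tested genes was also largest in that group, at 0.16 against 0.12 to 0.13. The exact 95% Poisson intervals of its replicates 1 and 3, 121 to 168 and 70.6 to 108 reads, did not overlap. They are not scaled for depth, which was 11682484 and 10537303 reads. These libraries were also picked as the highest and lowest of the 12 for Irs1. Averaged over injections its log2 fold change was -0.11 (SE 0.10, 95% interval -0.33 to 0.11, limma adjusted p 0.462), with 3.83 ± 0.558 TPM in OIR and 4.19 ± 0.313 TPM in sham (SD, n = 6 each). Its 88 to 152 reads per library give a counting SD of 0.11 on the log2 scale, against an SD within groups of 0.14.

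**Figure D2:**
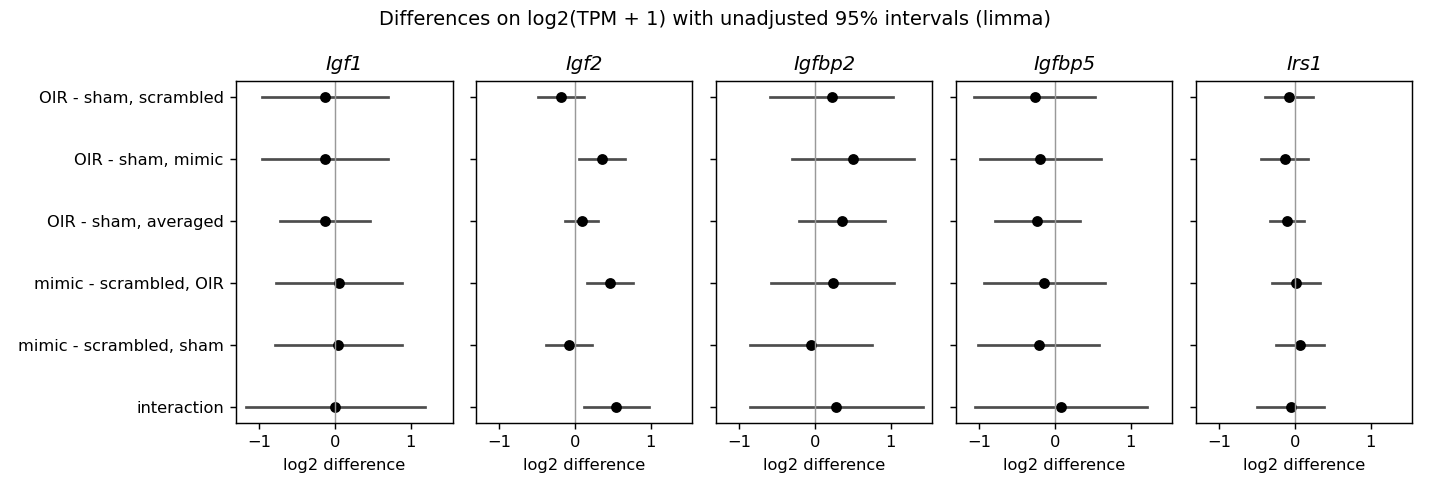
Differences on the log2(TPM + 1) scale with unadjusted 95% limma intervals for the 5 genes in 6 comparisons, each written as first group minus second; the interaction is the mimic effect in OIR minus that in sham. Intervals reach 0 for all genes and comparisons except for Igf2, where OIR against sham with the mimic, the mimic effect within OIR and the interaction lay above 0, and none of these passed adjustment.

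As a group, the 5 genes had a median absolute log2 fold change of 0.13 in the averaged OIR comparison, against 0.17 over all tested genes, and 2 of 5 values were positive, against 57.9% of all genes. All 5 of its 95% intervals lay between -1 and 1 in log2(TPM + 1) units. For mimic against scrambled RNA the median absolute value was 0.14 in OIR and 0.067 in sham, against 0.12 and 0.083 over all genes. In OIR the values of Igf1, Igfbp2, Igfbp5 and Irs1 were 0.047, 0.23, -0.14 and 0.0076, with limma adjusted p of 0.865 to 0.998. In sham they were 0.044, -0.049, -0.22 and 0.067, each with an adjusted p of 1. None of the 15916 tested genes was called in the mimic comparisons or the interaction by the reported limma fit on TPM or by limma voom on recovered reads. Other settings called 1 or 2 genes in some of these comparisons, among them 1 for the mimic in OIR and 1 for the interaction with no filter (22310 genes). Without OIR mimic replicate 1 the mimic comparison in OIR had 25 calls, and without both libraries lacking condition tags 28. At an unadjusted p under 0.05 the limma fit on TPM had 1491 genes in OIR (9.37%), 333 in sham (2.09%) and 589 for the interaction (3.70%).

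The SD within groups on the log2 scale was 0.53 for Igf1, 0.51 for Igfbp2 and 0.50 for Igfbp5, against medians of 0.14, 0.11 and 0.11 for genes within 2-fold of their mean levels. It exceeded the SD of 97.6%, 99.1% and 99.1% of those genes. Single libraries carried much of it. Without OIR mimic replicate 3, a setting chosen after seeing the data like the other spreads with libraries left out, the SD was 0.26 for Igf1 and 0.26 for Igfbp5, above that of 88.1% and 94.7% of genes at their levels. Without OIR mimic replicate 2 it was 0.39 for Igf1, above 95.8%. Without the pair of sham libraries with the shared number it was 0.28 for Igfbp2, above 95.6%. Counting error gives 0.092 for Igf1 and 0.072 for Igfbp2. Igf2 had an SD of 0.19, above that of 74.1% of genes at its level, and Irs1 had 0.14, above 9.40% of them, or 0.074 without OIR mimic replicate 1. By group, the SD of Igf1 was 1.00 in OIR with the mimic, 0.26 in OIR with scrambled RNA, 0.039 in sham with the mimic and 0.23 in sham with scrambled RNA. For Igfbp5 it was 0.88 in OIR with the mimic, 0.36 in OIR with scrambled RNA, 0.30 in sham with the mimic and 0.14 in sham with scrambled RNA. Over all tested genes the median SD was also largest in OIR with the mimic, at 0.16, against 0.12 to 0.13 in the other groups. For Igfbp2 the widest group was sham with scrambled RNA, with an SD of 0.78, and the narrowest OIR with scrambled RNA, with 0.098.

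**Figure D3:**
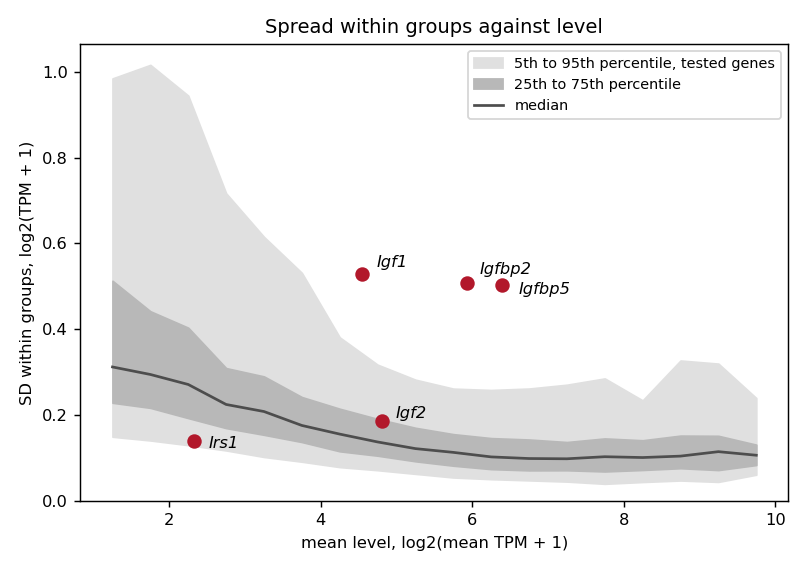
SD within groups on the log2(TPM + 1) scale (8 residual degrees of freedom) against mean level for the 5 genes (red), over bands for all tested genes in bins of level. Igf1, Igfbp2 and Igfbp5 lie above the 5th to 95th percentile band at 0.53, 0.51 and 0.50, and Irs1 lies near its lower edge at 0.14; without OIR mimic replicate 3 the SD of Igf1 and of Igfbp5 was 0.26.

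The closest relation between members in OIR was that of Igf1 and Igfbp5, and it did not pass correction. The ratio of Igfbp5 to Igf1 in TPM stayed between 2.74 and 4.54 in the OIR libraries and between 3.08 and 5.08 in the sham libraries, although each gene varied by more in OIR. Over the 6 OIR libraries, log2 levels of Igf1 and Igfbp5 had a Pearson r of 0.92 (exact permutation p 0.00833, two-sided) and a Spearman rho of 0.83 (exact permutation p 0.0583). Adjusted over the 10 pairs of members, the p-values were 0.0833 and 0.292. Without the 2 libraries farthest from the median of Igf1 the r was 0.89. After the mean of each injection group was taken out it was 0.94. Within 1 injection there are 3 libraries, too few for a value. In sham the same pair had an r of 0.10 and a rho of 0.086, given with no p because 2 of the 6 libraries share a column number. Igf1 spanned 1.35-fold in sham and 4.17-fold in OIR, and a difference in r between the conditions was not tested. The sham pair with the largest r in size was Igf1 and Igfbp2, at -0.92 (rho -1, r -0.71 without the 2 libraries farthest from the median of Igf1). In OIR that pair had an r of 0.44. Igf1 and Irs1 had an r of 0.75 in sham and -0.30 in OIR.

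Igfbp2 and Irs1 also failed correction over the OIR libraries, with a Pearson r of -0.86 (exact permutation p 0.0222, adjusted 0.111) and a rho of -0.83 (exact permutation p 0.0583, adjusted 0.292). The r was -0.68 without the 2 libraries farthest from the median of Igfbp2. OIR mimic replicate 3 had the highest Igf1, Igfbp2 and Igfbp5 and the lowest Irs1 of the 12 libraries. It was highest for 9.14% and lowest for 3.76% of tested genes.

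**Figure D4:**
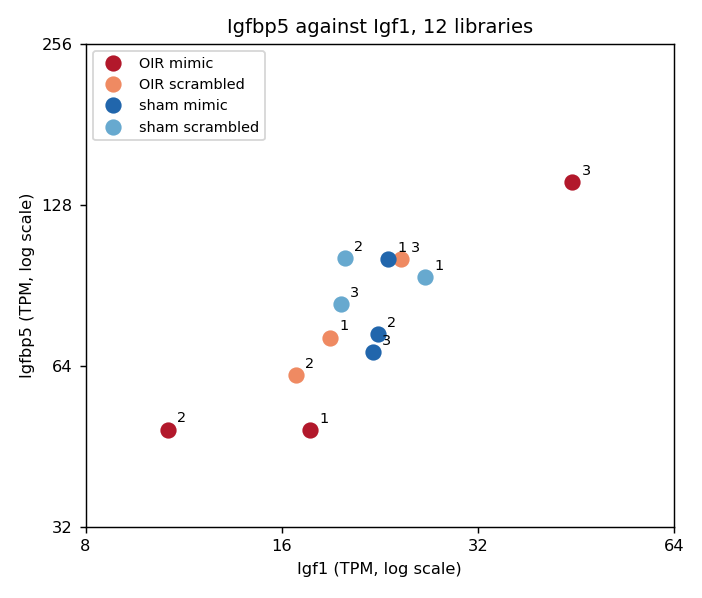
Igfbp5 against Igf1 in TPM, both on log scales, for the 12 libraries coloured by group; digits are replicate numbers. The OIR libraries run from OIR mimic replicate 2 (10.7 and 48.6 TPM) to OIR mimic replicate 3 (44.7 and 141 TPM), while the sham libraries stay between 19.7 and 26.6 TPM of Igf1.

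Among 12053 tested genes with a mean of at least 5 TPM, Igfbp5 ranked number 4 in likeness to Igf1 over the 12 libraries, with a Pearson r of 0.85, and Igf1 ranked number 8 in likeness to Igfbp5. OIR mimic replicate 3 was highest of the 12 for both genes. Over the sham libraries alone, where Igf1 spanned 1.35-fold, their r was 0.10. The 3 genes most like each member, none of them a member, had r of 0.86 to 0.88 for Igf1, 0.85 to 0.88 for Igf2, 0.94 to 0.96 for Igfbp2, 0.87 to 0.94 for Igfbp5 and 0.84 to 0.90 for Irs1. These are descriptions over libraries that fall into OIR and sham. Their identifiers are not paired with names in the files and are not given.

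The promoter windows of Igf1, Igfbp5 and Igfbp2, the members with the widest spread, are shown for comparison. RefSeq (build GRCr8) gives each as 300 bases around the start site. They lie at chr7:24172282-24172581 on the plus strand, at chr9:81914138-81914437 on the minus strand and at chr9:81864561-81864860 on the plus strand. Capitals mark ACGTG or GCGTG, the core letters of the hypoxia response element, on either strand.
Igf1: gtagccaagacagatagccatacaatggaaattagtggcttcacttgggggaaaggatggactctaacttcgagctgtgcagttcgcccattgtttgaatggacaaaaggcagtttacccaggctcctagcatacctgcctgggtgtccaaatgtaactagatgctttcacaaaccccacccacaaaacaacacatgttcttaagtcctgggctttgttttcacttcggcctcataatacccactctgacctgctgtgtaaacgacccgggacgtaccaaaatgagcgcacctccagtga
Igfbp5: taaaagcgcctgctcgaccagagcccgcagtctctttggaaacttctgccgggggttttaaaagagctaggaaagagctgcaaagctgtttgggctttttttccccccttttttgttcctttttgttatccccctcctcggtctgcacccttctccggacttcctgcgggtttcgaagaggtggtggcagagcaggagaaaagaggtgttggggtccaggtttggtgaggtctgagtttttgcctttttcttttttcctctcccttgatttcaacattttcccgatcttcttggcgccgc
Igfbp2: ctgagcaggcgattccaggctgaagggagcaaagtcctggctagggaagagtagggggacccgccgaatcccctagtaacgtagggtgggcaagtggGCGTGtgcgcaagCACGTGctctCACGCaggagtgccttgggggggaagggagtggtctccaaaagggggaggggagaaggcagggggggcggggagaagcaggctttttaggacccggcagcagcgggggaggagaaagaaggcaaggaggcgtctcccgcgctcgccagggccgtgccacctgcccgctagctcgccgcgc
Igfbp2 held 2 matches to ACGTG, which overlap as the palindrome CACGTG read on both strands, and 2 to GCGTG, while the Igf1 and Igfbp5 windows held 0 of each. Of the other members, 1 of the Igf2 windows held 1 of each and the Irs1 window 1 GCGTG. Over all 33469 RefSeq promoter windows of this length, 41.6% held at least 1 of them, 19.3% ACGTG and 29.7% GCGTG. A match describes letters in the window and not a site in use. The files' own build is rn6, and the windows were matched by symbol alone.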

How the data were processed

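Per the labels' protocols, retinal RNA was read from 1 end on an Illumina sequencer; they speak of miRNA libraries, while the table lists Ensembl genes. The authors deposited 1 table of TPM values for 32883 genes and 12 libraries. FastQC, TopHat, Cufflinks, Cuffdiff and build rn6 are named in the submitters' processing notes without roles. How reads were counted, and on which annotation, was not given in the sources used here. Columns were assigned through the lines above the table that pair them with sample titles, and 0 were left out.

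Genes with at least 1 TPM in at least 3 libraries were kept (15916). The limma package (3.58.1, R 4.3.3) fitted a mean for each group to log2(TPM + 1) over all 12 libraries, using eBayes with trend and robust options, and Benjamini-Hochberg adjustment over all tested genes (threshold 0.05). The groups shared 1 estimate of the spread per gene, so each SE draws on all 12 libraries. The fit was tested on simulated data. Whole reads were recovered from steps in the TPM values for 100.00% of the 22310 rows above 0 (tolerance 0.02 of a read), as the smallest whole numbers possible. They served for depth, for counting error and for 1 alternative, limma voom. Alternatives were other pseudocounts, filters, scalings and variance models, the replicate number as a block, and libraries left out, the last also for the spread within groups (chosen after seeing the data). The 5 genes and lists were chosen with earlier results of these data known. They are given in every comparison, whether called or not. For each, the 3 genes with the highest correlation over the libraries, among those averaging at least 5 TPM, are given by r. The lists of pathway genes and cell type markers are by symbol and were not used, since 0 identifiers could be matched to a symbol. The deposited libraries with the same replicate number were checked for pairing, and the numbers were not treated as pairs.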

Additional observations from a re-analysis of the deposited data

How the results depend on the processing

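The fits gave 734 alternative values for the 5 genes in 6 comparisons. Of these 686 kept their sign and their side of the threshold, 44 changed sign without passing it, and 4 passed it where the reported value did not. A call was lost in 0 cases, since there was none to lose. Many of the 686 could not change sign. Leaving out a library outside a comparison, the replicate block and the filters leave the estimate as it was. Their number is therefore no measure of robustness. The 4 were Igf2 in OIR against sham with the mimic (0.47 without OIR mimic replicate 1 and without both libraries lacking condition tags, limma adjusted p 0.0446 and 0.0408) and Igfbp5 without OIR mimic replicate 3 (-0.70 with the mimic and -0.49 averaged). With a filter of 5 TPM Irs1 gave no value. Scaling moved the median of all genes by at most 0.064.

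Of the sign changes, 28 came from leaving out 1 library and are covered by the ranges below. The 16 from other settings were as follows on the log2 scale. With arrayWeights, Igf1 gave 0.18 averaged over injections and 0.49 with the mimic for OIR against sham, Igfbp5 gave 0.0029 and 0.46 in those comparisons and 0.50 for the mimic in OIR, and Irs1 gave -0.062 for the mimic in OIR. Without the libraries lacking tags, Igfbp5 gave 0.31 for the mimic in OIR and 0.059 for OIR with the mimic, and Irs1 -0.11 for the mimic in OIR. Without the libraries with the shared number (chosen after seeing the data), Igfbp2 gave -0.23 for OIR with scrambled RNA, Igf2 0.069 for the mimic in sham and Igf1 -0.11 for the interaction. The Igf1 interaction was -0.0065 and -0.0020 with pseudocounts of 0.1 and 0.5 and -0.048 with voom; the Irs1 interaction was 0.0024 after quantile normalisation. The cause of these changes was not tested.

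With 1 library left out the ranges were as follows. For OIR against sham averaged over injections, Igf1 lay between -0.40 and 0.086, Igf2 between 0.0065 and 0.14, Igfbp2 between 0.14 and 0.50, Igfbp5 between -0.49 and -0.11 and Irs1 between -0.18 and -0.063. With the mimic, Igf1 lay between -0.67 and 0.31, Igf2 between 0.20 and 0.47, Igfbp2 between 0.24 and 0.75, Igfbp5 between -0.70 and 0.059 and Irs1 between -0.28 and -0.046. With scrambled RNA, Igf1 lay between -0.28 and -0.0011, Igf2 between -0.26 and -0.10, Igfbp2 between -0.23 and 0.51, Igfbp5 between -0.47 and -0.11 and Irs1 between -0.13 and -0.022. For the mimic in OIR, Igf1 lay between -0.49 and 0.49, Igf2 between 0.30 and 0.57, Igfbp2 between 0.044 and 0.48, Igfbp5 between -0.65 and 0.11 and Irs1 between -0.13 and 0.0998. For the mimic in sham, Igf1 lay between -0.029 and 0.18, Igf2 between -0.16 and -0.0034, Igfbp2 between -0.49 and 0.24, Igfbp5 between -0.39 and -0.10 and Irs1 between 0.018 and 0.12. For the interaction, Igf1 lay between -0.54 and 0.44, Igf2 between 0.39 and 0.66, Igfbp2 between -0.011 and 0.72, Igfbp5 between -0.43 and 0.33 and Irs1 between -0.20 and 0.032. The spread was pooled over all groups in the reported fit and in these, also where a group was left with 2 libraries. An SE is therefore not the spread of the compared groups alone. For Igf1 and the mimic in sham, the SE was 0.38 as reported and 0.12 with only the 2 compared groups fitted. For Igf1 and the mimic in OIR it was 0.38 and 0.46.

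Libraries with the same replicate number deviated together by over 0.1 in 5 of 18 pairs (r -0.048 to 0.26), and the best match in another group had the same number in 17 of 36 cases. The highest r, 0.26, was that of the sham libraries that share a column number. With the replicate block 0 of the 5 genes were called. Igfbp2 averaged over injections gave 0.36 (SE 0.16 against 0.26 without the block, limma adjusted p 0.127). The count over all genes was 5026, against 4813.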
